A study of Mus musculus with 6 samples.

Results

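The VEGF system was examined in cultured bone marrow mesenchymal stem cells (BM MSCs) through 10 genes, chosen by symbol: the ligands *Vegfa*, *Vegfb*, *Vegfc*, *Vegfd* and *Pgf*, the receptors *Flt1*, *Kdr* and *Flt4*, and the neuropilins *Nrp1* and *Nrp2*. All 10 were found among the 56980 genes of the counts table, and all 10 passed the filter on low counts that left 15190 genes for testing. The MSCs came from female mice ovariectomised (OVX) when 8 weeks old and pretreated with antibiotics. These recipients were gavaged for 8 weeks with feces of sedentary donors (TranspCtrl, 3 samples) or of treadmill-exercised donors (TranspExer, 3 samples). The paper describes the donors as osteoporotic OVX mice too. OVX, antibiotics and fecal microbiota transplantation (FMT) were thus shared by both groups. The cells were flushed marrow cultured for 7 days and washed, with no sorting described, and whether each sample was a separate animal or a pool was not stated, so p-values measure the spread between these samples, which may be technical.

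VEGF ligands are secreted dimers that bind receptor tyrosine kinases, chiefly on endothelial cells. VEGF-A binds FLT1 and KDR, VEGF-B and placental growth factor bind FLT1, VEGF-C binds FLT4 and, once processed, KDR, and mouse VEGF-D binds FLT4. KDR carries most of the growth and permeability signal, FLT1 binds VEGF-A tightly but signals weakly and can act as a decoy, and the neuropilins are co-receptors that also bind class 3 semaphorins. In marrow, KDR and FLT4 are known from the sinusoidal endothelium, while VEGF-A is also made by stromal and bone-forming cells and FLT1 is found on monocytes as well.

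All 3 receptor genes and *Nrp1* rose in the TranspExer group, as did the ligand genes *Pgf* and *Vegfb*, whereas *Vegfa*, the ligand gene with the most reads, fell. The largest log2 fold changes among the 10 were those of *Flt4* (1.79), *Kdr* (1.55) and *Pgf* (1.24), and these 3 genes passed both thresholds for differentially expressed genes (DEGs), an adjusted p-value under 0.05 and a fold change of at least 2. By these thresholds 3.50% of all genes tested were higher and 5.28% lower, 8.78% in all, and none of the 10 was lower. At the adjusted p-value alone, 6 of the 10 were higher, beside 16.6% of all genes, and 1 was lower, beside 15.5% (32.2% in either direction, against 7 of the 10). The groups did not overlap, with the TranspExer samples above, for 7 of the 10 genes (27.2% of all genes), and with them below for 2 (25.1%). The median log2 fold change was 0.66 over the 10 genes and -0.018 over all genes tested.

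Total counts ranged from 17647682 to 21319228 per sample, and 3 counts equalled 0.141 to 0.17 CPM (counts relative to the library total after TMM scaling). TranspCtrl replicate 1 stood apart from the other TranspCtrl samples, at a Euclidean distance of 62.8 and 60.2 in log2 CPM, against 37 between replicates 2 and 3. Without it the biological coefficient of variation of the TranspCtrl group was 0.0479 in place of 0.167. In bulk RNA, more cells of a type and more RNA per cell cannot be told apart. Counts were summed per gene, so the splice forms of *Vegfa* and the soluble form of *Flt1* were not separated.

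The promoter windows of 4 members are shown because they belong to pairs with unlike changes: *Kdr* had a larger fold change than *Flt1* among the receptors, and *Vegfa* fell while *Vegfb* rose among the ligands. Each line holds the 250 bases before the RefSeq transcription start (GRCm38.p6), written 5′ to 3′ on the gene's strand, with capitals for the GC box GGGCGG on either strand.
Kdr, chr5:75978456-75978705, minus strand: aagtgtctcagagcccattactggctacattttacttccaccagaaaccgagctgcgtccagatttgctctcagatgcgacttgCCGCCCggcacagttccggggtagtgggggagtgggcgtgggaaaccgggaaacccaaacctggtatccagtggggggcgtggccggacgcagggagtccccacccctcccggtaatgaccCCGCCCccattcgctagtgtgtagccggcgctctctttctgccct
Flt1, chr5:147726012-147726261, minus strand: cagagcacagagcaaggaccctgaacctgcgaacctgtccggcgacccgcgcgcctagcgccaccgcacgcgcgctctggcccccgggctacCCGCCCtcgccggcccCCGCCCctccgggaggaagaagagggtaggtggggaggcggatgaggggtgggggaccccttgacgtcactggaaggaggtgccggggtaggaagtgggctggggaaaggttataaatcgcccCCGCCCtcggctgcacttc
Vegfa, chr17:46032378-46032627, minus strand: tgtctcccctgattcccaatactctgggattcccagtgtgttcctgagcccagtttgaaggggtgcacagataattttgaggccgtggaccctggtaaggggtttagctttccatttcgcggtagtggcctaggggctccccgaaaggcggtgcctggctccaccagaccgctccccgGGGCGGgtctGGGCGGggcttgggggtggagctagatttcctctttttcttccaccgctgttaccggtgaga
Vegfb, chr19:6987652-6987901, minus strand: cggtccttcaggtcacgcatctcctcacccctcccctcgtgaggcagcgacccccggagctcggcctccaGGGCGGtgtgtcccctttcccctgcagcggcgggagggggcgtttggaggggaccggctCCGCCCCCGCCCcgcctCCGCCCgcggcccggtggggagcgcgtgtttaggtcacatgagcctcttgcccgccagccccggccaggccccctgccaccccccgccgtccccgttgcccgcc
The GC box stood 2 times in the *Kdr* window, with first bases 166 and 45 bases before the start, and 3 times in the *Flt1* window, at 158, 142 and 19 bases. It stood 2 times in the *Vegfa* window, at 72 and 62 bases, and 4 times in that of *Vegfb*, at 180, 121, 115 and 104 bases, of which the copies at 121 and 115 adjoin. Of the 12 windows of the 10 members, since *Vegfa* and *Pgf* had 2 each, 10 held it, against 32.7% of 32851 promoter windows of the same length, and *Vegfd* was the member without it. The windows shown were 61.6%, 70.4%, 59.2% and 76.4% G or C for *Kdr*, *Flt1*, *Vegfa* and *Vegfb*, and the median over all windows was 52.4%. The hypoxia element core ACGTG was found in 1 of the 12 windows, the second *Vegfa* window at a start within the gene, against 16.6% of all windows, and CACGTG, which contains it, in none against 6.02%. GGAAG, the core of ETS sites, was held by 7 of the 12 windows and 64.1% of all windows. AGATAA and TGATAA, forms of the GATA site, were held by 2 of the 12 and none, against 9.99% and 7.94% of windows.

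*Kdr* (ENSMUSG00000062960, chromosome 5, 75932827 to 75978458, minus strand), which encodes the main signalling receptor for VEGF-A, had 17.1, 20.2 and 19.3 CPM in TranspCtrl replicates 1, 2 and 3 and 49.8, 54.3 and 61.0 CPM in TranspExer replicates 1, 2 and 3. Every TranspExer sample lay far above every TranspCtrl sample, and the TranspCtrl samples lay close together. The group means were 18.9 ± 1.56 and 55.1 ± 5.66 CPM (SD, n = 3), and the fitted log2 fold change was 1.55 ± 0.11 SE (edgeR adjusted p = 7.57e-05). Without TranspCtrl replicate 1 it was 1.48.

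*Flt4* (ENSMUSG00000020357, chromosome 11, 49609263 to 49652739, plus strand), the receptor gene for VEGF-C and VEGF-D, had 4.49, 9.19 and 6.88 CPM in the TranspCtrl samples and 21.4, 23.5 and 26.0 CPM in the TranspExer samples, in replicate order. The TranspCtrl samples spread more widely here, with replicate 1 lowest, yet the groups were well apart. The means were 6.85 ± 2.35 and 23.6 ± 2.29 CPM (SD, n = 3), and the fitted log2 fold change was 1.79 ± 0.22 SE (adjusted p = 0.00101). It was 1.56 without TranspCtrl replicate 1 and between 1.56 and 2.05 with each sample left out in turn.

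*Flt1* (ENSMUSG00000029648, chromosome 5, 147561604 to 147726011, minus strand), the receptor gene shared by VEGF-A, VEGF-B and placental growth factor, had 6.88, 10.2 and 9.02 CPM in TranspCtrl and 14.3, 14.2 and 14.7 CPM in TranspExer. The groups did not overlap, and the TranspExer samples were almost equal. The log2 fold change was 0.73 ± 0.15 SE (adjusted p = 0.00836), which passed the adjusted p-value but not the fold change threshold. It was 0.59 without TranspCtrl replicate 1 (adjusted p = 0.000665).

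*Nrp1* (ENSMUSG00000025810, chromosome 8, 128358604 to 128503363, plus strand), the co-receptor gene for VEGF-A, had 179, 209 and 202 CPM in TranspCtrl and 283, 292 and 309.7 CPM in TranspExer. The groups did not overlap, and the log2 fold change was 0.58 ± 0.09 SE (adjusted p = 0.00243). *Nrp2* (ENSMUSG00000025969, chromosome 1, 62703285 to 62818695, plus strand), more closely tied to VEGF-C, had 351, 380.3 and 363 CPM in TranspCtrl and 316, 329.9 and 340.4 CPM in TranspExer. The TranspExer samples of *Nrp2* lay below the TranspCtrl samples by a narrow margin, with a log2 fold change of -0.15 (95% interval -0.33 to 0.03, adjusted p = 0.171). It passed the adjusted p-value without TranspCtrl replicate 1 (log2 fold change -0.18, adjusted p = 0.0152), and with library size scaling (-0.24, adjusted p = 0.0351).

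**Figure D1:**
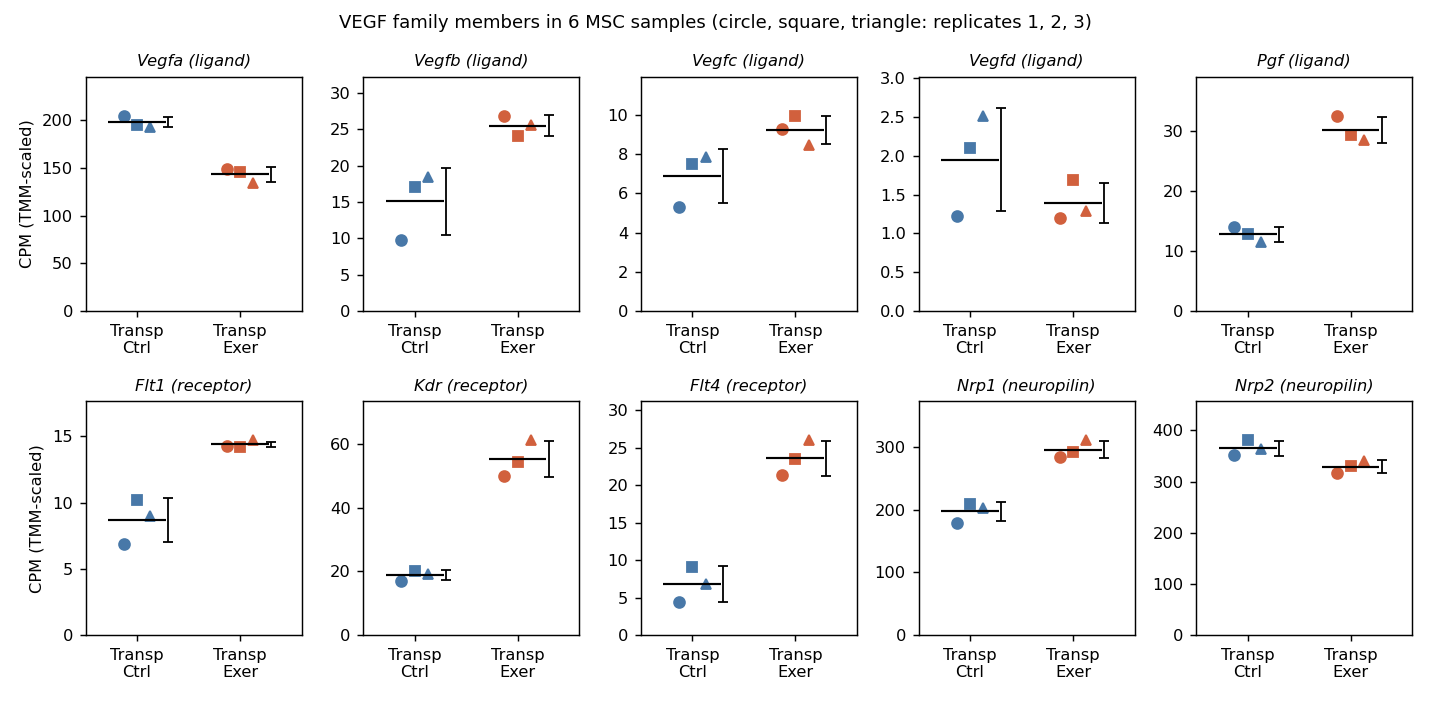
CPM of each of the 10 members in each sample; blue marks TranspCtrl and orange TranspExer, the symbol gives the replicate, lines are group means and bars the SD (n = 3), and each vertical axis starts at 0. *Kdr*, *Flt4* and *Pgf* show the widest gaps between the groups, *Vegfd* overlaps, and TranspCtrl replicate 1 is lowest of its group for *Vegfb*, *Vegfc*, *Vegfd*, *Flt1*, *Kdr*, *Flt4*, *Nrp1* and *Nrp2*.

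Among the ligands, *Vegfa* (ENSMUSG00000023951, chromosome 17, 46016993 to 46032369, minus strand), the main driver of vessel growth, had 204, 195 and 193 CPM in TranspCtrl and 149, 146 and 134 CPM in TranspExer. Both groups were tight and apart, so that the TranspExer mean was 0.724 of the TranspCtrl mean. The log2 fold change was -0.47 ± 0.08 SE (adjusted p = 0.00363), and it stayed between -0.50 and -0.43 with each sample left out in turn.

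*Pgf* (ENSMUSG00000004791, chromosome 12, 85166635 to 85177790, minus strand), which encodes placental growth factor, had 14, 12.8 and 11.5 CPM in TranspCtrl and 32.5, 29.4 and 28.6 CPM in TranspExer. The lowest TranspExer sample was more than 2 times the highest TranspCtrl sample. The log2 fold change was 1.24 ± 0.11 SE (adjusted p = 0.000197).

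*Vegfb* (ENSMUSG00000024962, chromosome 19, 6982473 to 6987651, minus strand), whose product binds FLT1 and not KDR, had 9.81, 17.1 and 18.4 CPM in TranspCtrl and 26.8, 24.0 and 25.6 CPM in TranspExer. TranspCtrl replicate 1 was well below its group, but all TranspExer samples lay above all TranspCtrl samples. The log2 fold change was 0.75 ± 0.21 SE (adjusted p = 0.0282), and 0.52 without TranspCtrl replicate 1 (adjusted p = 0.000366). The call was lost when any TranspExer sample was left out (adjusted p = 0.0918, 0.0705 and 0.0897 without replicates 1, 2 and 3).

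The genes of the FLT4 ligands were low and did not pass the test. *Vegfc* (ENSMUSG00000031520, chromosome 8, 54077606 to 54187096, plus strand) had 5.32, 7.50 and 7.86 CPM in TranspCtrl and 9.26, 9.94 and 8.49 CPM in TranspExer, without overlap (log2 fold change 0.42, 95% interval 0.03 to 0.80, adjusted p = 0.0895). Without TranspCtrl replicate 1 it was 0.26 (adjusted p = 0.11). *Vegfd* (ENSMUSG00000031380, chromosome X, 164373378 to 164402650, plus strand) had 25, 41 and 54 counts in TranspCtrl and 23, 29 and 26 counts in TranspExer, the fewest of the family. Its groups overlapped through TranspCtrl replicate 1 (log2 fold change -0.49, 95% interval -1.21 to 0.23, adjusted p = 0.261). Without that sample the log2 fold change of *Vegfd* was -0.74 (adjusted p = 0.0417).

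**Figure D2:**
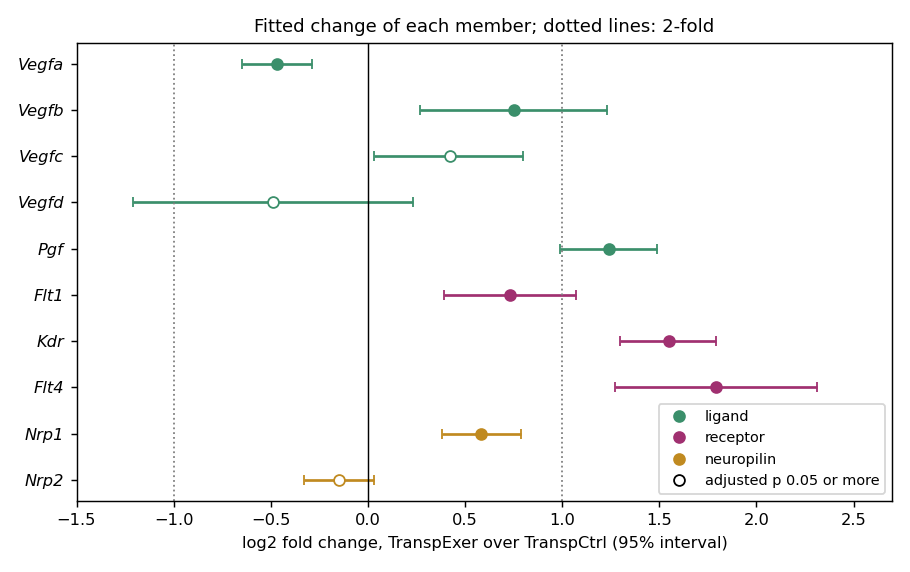
Log2 fold change of each member, TranspExer over TranspCtrl, with its 95% interval from the edgeR fit; green marks ligands, purple receptors and ochre neuropilins, open symbols have an adjusted p-value of 0.05 or more, and dotted lines mark a 2-fold change. The intervals of *Kdr* (1.30 to 1.79) and *Flt4* (1.27 to 2.31) lie beyond 2-fold, that of *Pgf* starts at 0.99, and those of *Vegfc* (0.03 to 0.80), *Vegfd* and *Nrp2* reach or come near 0.

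Levels of different genes were compared as CPM per kb of the gene length given in the table, which may not be the length of the form expressed. In TranspCtrl, *Vegfa* was highest at 100.1 ± 2.83 CPM per kb (SD, n = 3), followed by *Nrp2* (57.4) and *Nrp1* (54.8), whose samples overlapped, and then by *Vegfb* (11.8) and *Pgf* (6.15). *Kdr* (3.19) and *Vegfc* (2.81) came next and overlapped, as did neighbours in the order among *Flt1* (1.26), *Flt4* (1.10) and *Vegfd* (0.949) at the bottom. In TranspExer, *Nrp1* (82.0 ± 3.80 CPM per kb; SD, n = 3) stood above *Vegfa* (72.5 ± 4.14) without overlap, then *Nrp2* (51.7), *Vegfb* (19.9), *Pgf* (14.5) and *Kdr* (9.30). *Flt4* (3.78) and *Vegfc* (3.77) overlapped, and *Flt1* (2.09) and *Vegfd* (0.680) were lowest. The order thus changed at the top, where *Vegfa* came first in TranspCtrl and *Nrp1* in TranspExer, and *Flt4* overlapped with *Flt1* in TranspCtrl and stood above it in TranspExer.

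The make-up of each class shifted with these levels. *Vegfa* held 80.1% to 85.8% of the ligand CPM per kb in TranspCtrl and 64.2% to 66.3% in TranspExer, while *Pgf* held 4.53% to 5.59% and 12.6% to 13.4%, and *Vegfb* 6.36% to 11.7% and 16.7% to 18.9%. Among the receptors, *Flt1* held 21.7% to 23.2% in TranspCtrl and 12.8% to 14.9% in TranspExer, and *Flt4* 15.6% to 23.1% and 24.6% to 25.1%. *Kdr* was the leading receptor gene in every sample, with 53.6% to 62.8% in TranspCtrl and 60.5% to 62.1% in TranspExer. *Nrp1* held 47.4% to 49.6% of the neuropilin CPM per kb in TranspCtrl and 61.0% to 61.7% in TranspExer.

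**Figure D3:**
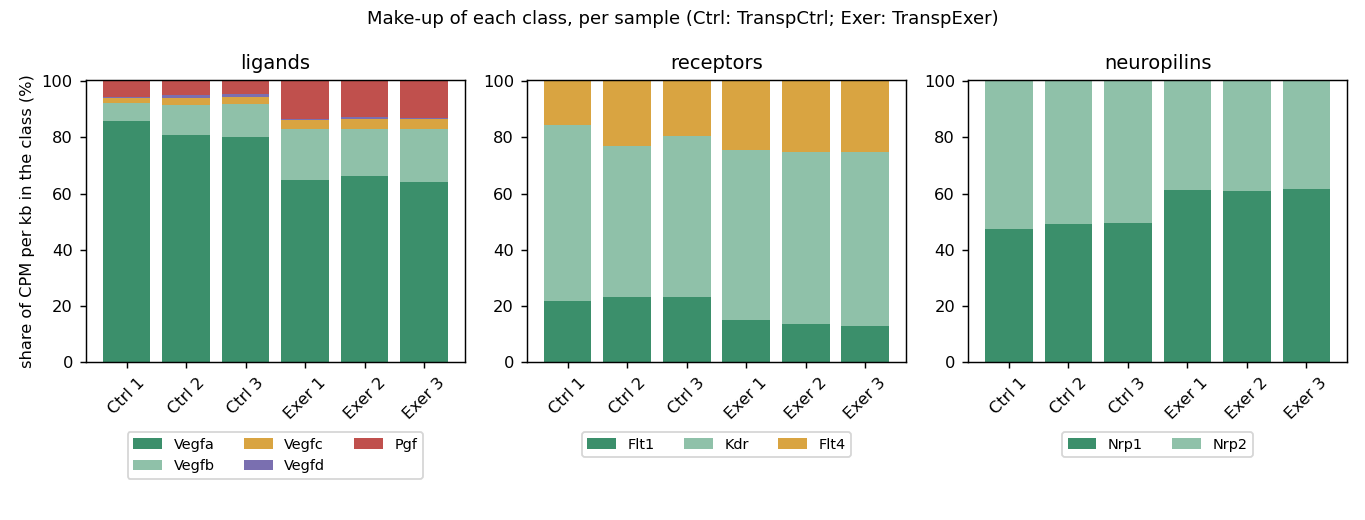
Share of each member in the summed CPM per kb of its class (percent, vertical axis) in each of the 6 samples, for ligands, receptors and neuropilins. The *Vegfa* share is lower in all 3 TranspExer samples (64.2% to 66.3%) than in all 3 TranspCtrl samples (80.1% to 85.8%), and *Nrp1* passes *Nrp2* per kb in TranspExer samples and not in TranspCtrl samples.

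Ratios between members were taken on CPM, not per kb, and were compared by exact two-sided permutation tests over the samples, whose smallest possible p with 3 against 3 is 0.1, so none of the 6 ratios could reach 0.05. The log2 ratio of *Kdr* to *Flt1* was 1.12 ± 0.16 in TranspCtrl and 1.92 ± 0.13 in TranspExer (SD, n = 3), without overlap (exact p = 0.1, 0.12 adjusted over 6 ratios). The log2 ratio of *Pgf* to *Vegfa*, both ligands of FLT1, moved furthest, from -3.94 ± 0.10 to -2.24 ± 0.06, and that of *Vegfa* to *Vegfb* from 3.75 ± 0.53 to 2.49 ± 0.11. That of *Nrp2* to *Nrp1* was 0.89 ± 0.07 and 0.16 ± 0.02, so that *Nrp2* had the higher CPM in both groups and the lead of *Nrp1* in TranspExer held per kb alone, through the gene lengths in the table. That of *Vegfc* to *Vegfd* was 1.81 ± 0.22 and 2.65 ± 0.18. These 4 ratios did not overlap between groups either, with the same exact p. The log2 ratio of *Flt4* to *Kdr* was -1.5 ± 0.39 and -1.22 ± 0.01 and overlapped (exact p = 0.4), and the difference of 0.29 was 0.08 without TranspCtrl replicate 1.

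Endothelial markers moved in the same direction as the receptors. Of 20 endothelial markers other than the 10 members, all were tested, with a median log2 fold change of 1.52. In TranspExer 16 were higher past both DEG thresholds, beside 3.50% of all genes tested, and 19 at the adjusted p-value alone, beside 16.6%. None of the 20 markers was lower, beside 5.28% and 15.5% of all genes tested. Their summed level was 303 to 383 CPM across the TranspCtrl samples against 1077 to 1128 CPM across the TranspExer samples, and none of the markers was at 0. *Cdh5*, *Eng*, *Pecam1* and *Vwf*, the most abundant of them, which encode VE-cadherin, endoglin, the adhesion molecule CD31 and von Willebrand factor, had log2 fold changes of 2.02, 1.69, 0.87 and 1.81. *Clec14a* was the marker that did not pass (log2 fold change 0.19, adjusted p = 0.582). Of 6 lymphatic endothelial markers, *Prox1*, which defines that lineage, had 4 to 12 counts per sample and *Ccl21a* at most 1, both under the filter. *Mmrn1* rose by 1.16 on the log2 scale and *Reln* fell by 2.20. *Lyve1* rose by 1.64, on 5, 8 and 5 counts in TranspCtrl and 13, 22 and 17 counts in TranspExer. *Pdpn* stood at -0.28 (adjusted p = 0.167). Without TranspCtrl replicate 1, *Pdpn* passed at -0.41 (adjusted p = 0.00215).

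Set against the mean log2 CPM of the 20 endothelial markers in the same sample, which was 3.32 ± 0.15 in TranspCtrl and 4.86 ± 0.02 in TranspExer (SD, n = 3), the members diverged. *Kdr* stood 0.93 ± 0.04 above that mean in TranspCtrl and 0.92 ± 0.16 above it in TranspExer on the log2 scale, with overlapping samples (exact permutation p = 1). *Flt4* stood at -0.58 ± 0.37 and -0.29 ± 0.15, also overlapping (exact p = 0.3), and this difference of 0.29 was 0.09 without TranspCtrl replicate 1. *Flt1* went from -0.20 ± 0.14 to -1.0 ± 0.04, *Nrp1* from 4.30 ± 0.05 to 3.35 ± 0.08, and *Nrp2* from 5.19 ± 0.09 to 3.50 ± 0.06, each without overlap (exact p = 0.1, the smallest possible, and 0.167 adjusted over 5 genes). *Flt1*, *Nrp1* and *Nrp2* were thus lower relative to the endothelial markers in every TranspExer sample than in any TranspCtrl sample, although *Flt1* and *Nrp1* were higher in CPM. The part of the endothelial markers in the rise of the receptor genes was not tested. Of 6 megakaryocyte markers, 4 were higher past both thresholds, beside 3.50% of all genes tested, and 2 did not pass the adjusted p-value. *Pf4*, the most abundant, was 1 of these 2 (log2 fold change 0.02, adjusted p = 0.948). The sum of the 6 markers was 253 to 315 CPM in TranspCtrl and 457 to 492 CPM in TranspExer, with none at 0. Their part in the result was not tested either.

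**Figure D4:**
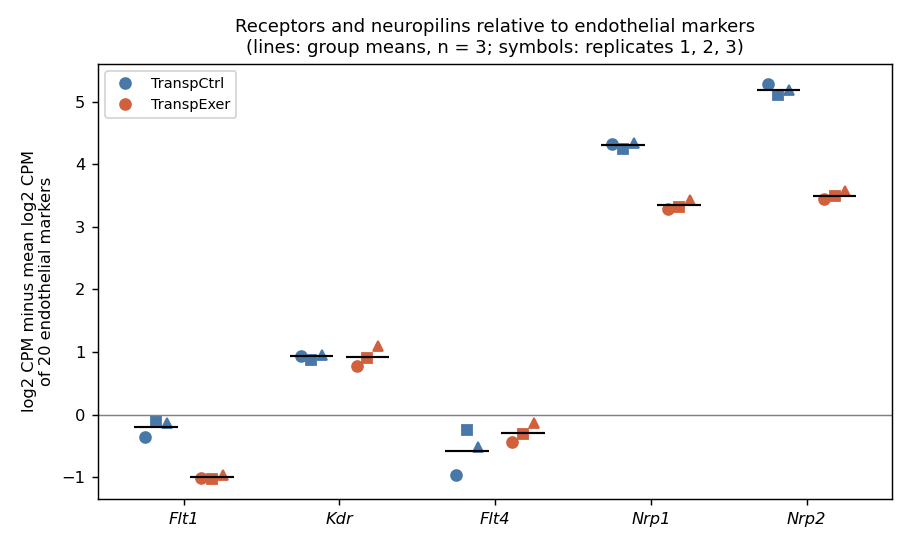
Log2 CPM of each receptor and neuropilin gene minus the mean log2 CPM of 20 endothelial markers (vertical axis) in each sample; blue marks TranspCtrl, orange TranspExer, the symbol the replicate, and lines the group means. *Kdr* (means 0.93 and 0.92) and *Flt4* overlap between groups, while *Flt1*, *Nrp1* and *Nrp2* lie lower in TranspExer, *Nrp2* by 1.69.

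Stromal markers, the label of these cells, were abundant but mostly lower in TranspExer: of 14 tested, 7 passed both thresholds as lower and none as higher, and at the adjusted p-value alone 11 were lower and 1, *Pdgfrb*, was higher. Of all genes tested, 5.28% were lower and 3.50% higher past both thresholds, and 15.5% and 16.6% at the adjusted p-value alone. Their sum was 15801 to 23755 CPM in TranspCtrl and 14052 to 15325 CPM in TranspExer, with *Col1a1*, *Col1a2*, *Col3a1* and *Cxcl12* leading it (log2 fold changes -0.16, -0.61, -1.28 and -0.46; *Col1a1* did not pass, adjusted p = 0.674, but had -0.44 and adjusted p = 1.54e-05 without TranspCtrl replicate 1). The fall of *Vegfa* stood beside these values, and their part in it was not tested.

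The next list held the relay behind the receptors. Of 62 tested relay genes, from adaptors and kinases to phosphatases, 3 were higher and 1 lower past both thresholds, 17 were higher and 3 lower at the adjusted p-value alone, and 42 did not pass, with a median log2 fold change of 0.16. Of all genes tested, 3.50% were higher and 5.28% lower past both thresholds, and 16.6% and 15.5% at the adjusted p-value alone. The groups did not overlap for 31 of the 62 genes with TranspExer above and for 5 with it below, against 27.2% and 25.1% of all genes. *Ptprb*, which encodes the endothelial phosphatase VE-PTP that acts on KDR and VE-cadherin, had 5.86, 4.31 and 5.25 CPM in TranspCtrl and 17.5, 18.7 and 19.8 CPM in TranspExer (log2 fold change 1.86, adjusted p = 8.89e-05). *Nck2*, an SH2 adaptor gene, showed a log2 fold change of 1.11 (adjusted p = 0.0043), and *Nos3*, the endothelial nitric oxide synthase gene, one of 1.10 (adjusted p = 0.0014). Without TranspCtrl replicate 1, *Ptprb* alone of the 3 passed the fold change threshold. *Ppp3cc*, a calcineurin catalytic subunit gene, fell from 20 ± 0.855 to 8.90 ± 0.333 CPM (SD, n = 3), with log2 fold change -1.17 (adjusted p = 0.000146).

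A further list held genes known to respond to VEGF in endothelial cells. Of 25 tested, 6 were higher and 1 lower past both thresholds, and 11 were higher and 3 lower at the adjusted p-value alone (median log2 fold change 0.29), beside 3.50% higher and 5.28% lower, and 16.6% and 15.5%, of all genes tested. *Angpt2*, which encodes the TIE2 ligand angiopoietin-2, had 43.6, 41.0 and 37.7 CPM in TranspCtrl and 192, 183 and 166 CPM in TranspExer, and the fitted log2 fold change was 2.15 ± 0.09 SE (adjusted p = 2.04e-05). The groups were far apart. *Esm1*, a tip cell gene, had 28.7, 28.7 and 25.9 CPM and 83.9, 77.7 and 69.1 CPM (log2 fold change 1.47, adjusted p = 6.36e-05). *Apln*, *Pdgfb*, *Nrarp* and *Dll4* were the other 4, with log2 fold changes of 2.09, 1.73, 1.39 and 1.18. *F3*, the tissue factor gene, fell from 8.95 ± 1.33 to 2.22 ± 0.0632 CPM (SD, n = 3), with log2 fold change -2.01 (adjusted p = 0.000138). The endothelial markers given above rose in the same samples, and their part in these changes was not tested.

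Genes that govern the expression and processing of the ligands formed a list of 30 tested members. Of these, 1 was higher and none lower past both thresholds, 4 were higher and 4 lower at the adjusted p-value alone, 22 did not pass, and the median log2 fold change was 0.06. These 8 calls in 30 genes were not above the 32.2% of all genes tested, so nothing is read from them about the list. The gene past both thresholds was *Epas1*, which encodes the hypoxia factor HIF-2α that is abundant in endothelium, with 40.1, 58.4 and 56.5 CPM in TranspCtrl and 144, 147 and 161 CPM in TranspExer (log2 fold change 1.54, adjusted p = 0.000258). *Hif1a*, its close relative and a main activator of *Vegfa*, had 382, 544 and 509 CPM and 334, 335 and 355 CPM, a log2 fold change of -0.49 (adjusted p = 0.0251). Every TranspExer sample of *Hif1a* was below every TranspCtrl sample.

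The semaphorin and plexin genes that share the neuropilins moved in both directions. Of 12 tested, 1 was higher and 2 lower past both thresholds, beside 3.50% and 5.28% of all genes tested. At the adjusted p-value alone 6 were higher and 3 lower, beside 16.6% and 15.5%, and the median log2 fold change was 0.38. *Sema3f*, a ligand gene for NRP2, had 7.37, 13.4 and 12.1 CPM in TranspCtrl and 24.1, 26.4 and 26.6 CPM in TranspExer (log2 fold change 1.23, adjusted p = 0.00306). *Sema3c* fell from 7.12 ± 0.885 to 1.62 ± 0.435 CPM and *Sema3b* from 3.49 ± 0.159 to 1.05 ± 0.163 CPM (SD, n = 3), giving -2.13 and -1.73 as log2 fold changes (adjusted p = 0.000424 and 0.000745).

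**Figure D5:**
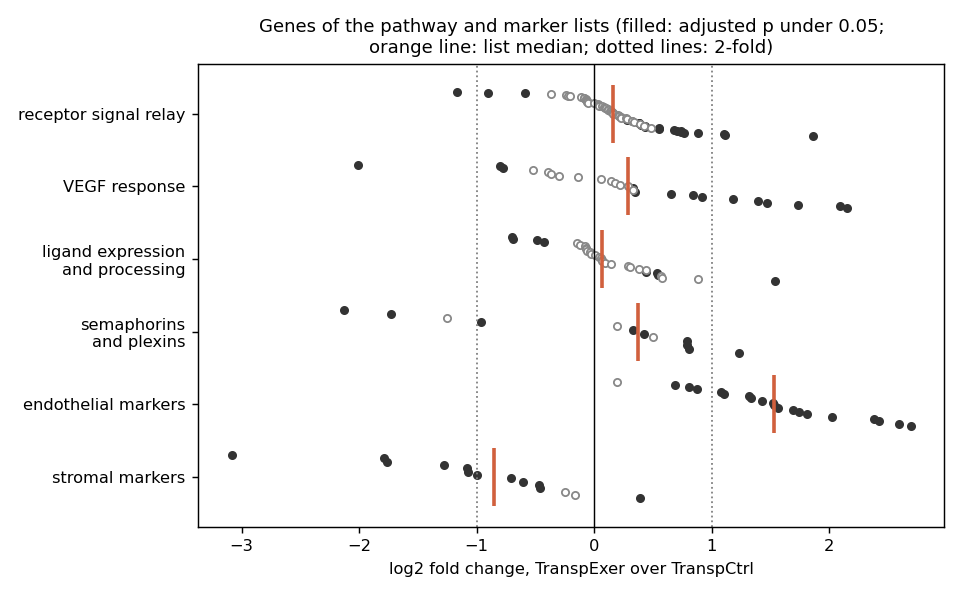
Log2 fold change, TranspExer over TranspCtrl, of each tested gene (points) in 4 lists of VEGF pathway genes and in the endothelial and stromal marker lists; filled points have an adjusted p-value under 0.05, orange lines are list medians and dotted lines mark a 2-fold change. The endothelial markers lie to the right (median 1.52), the stromal markers mostly to the left, and the relay genes gather near 0 (median 0.16).

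To find genes whose pattern was most like that of a member, the log2 CPM profile over the 6 samples, centred on its own mean, was compared with those of 9449 named genes averaging 10 CPM or more, and the root mean square difference was taken. These are descriptions, since the 6 samples fall into 2 groups. The nearest to *Kdr* was *Tie1* (difference 0.043, Pearson r = 0.999 over 6 samples), an endothelial receptor kinase gene, followed by *Slco2b1* (0.051) and *Itga2b* (0.056), a megakaryocyte marker. Near *Flt4* were *Spry4* (0.096) and *Pdgfb* (0.127). For *Flt1* the nearest were *Dchs1* (0.035), *Sema6b* (0.036) and *Sh2b2* (0.042), and none of the 3 was on the list of endothelial markers. For *Pgf* they were *Lgals3* (0.080), *Nr1h3* (0.091) and *Gpnmb* (0.092). For *Nrp1* they were *Elmo1*, *Atp8a1* and *Agpat3*, for *Vegfb* *Srsf9*, *Lmnb1* and *Arpc4*, and for *Vegfa* *Cysltr1*, *Acta2* and *Gramd3*, all within 0.050.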

How the data were processed

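RNA-Seq counts of 3 TranspCtrl and 3 TranspExer samples were used, grouped by the sample titles. The authors deposited estimated count values per gene, not normalized, with a gene length; 10.1% to 12.2% of a library's entries had decimals. The build is mm10 per the submitters' processing notes, and the aligner, counting tool and annotation are not given in the sources used here, nor is the test for DEGs. The labels name a stranded kit and the methods a TruSeq kit.

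Counts were rounded and tested with edgeR 4.0.16 in R 4.3.3 (filterByExpr, TMM, quasi-likelihood test on group alone), and p-values were adjusted by Benjamini-Hochberg across 15190 genes. Intervals are at 95%. Counting floors of 3 counts cover counting error only. CPM are TMM-scaled, and log2 CPM used a prior count of 2. The study's DEG thresholds of 0.05 and a 2-fold change were applied. DESeq2 1.42.0 and other normalizations, filters and left-out samples were alternatives. Both tests were checked on simulated counts.

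Positions are those of GENCODE M21 (GRCm38), by gene identifier. In that annotation *Nrp1* and *Nrp2* were the members overlapped by other genes, the highest of which had 22 counts. Promoter windows came from RefSeq and were found for all 10 members. Protein sequences were not used here. The members, the gene lists and the tests were chosen with earlier results of these data known. Named genes were the 10 members, the genes of each pathway list past both thresholds, the 4 most abundant markers of each marker list, and the 3 nearest profiles of each member past the adjusted p-value. *Clec14a*, *Hif1a*, *Pdgfrb*, *Prox1* and *Ccl21a* were named after their values were seen. A gene that this rule also names is not reported here.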

Additional observations from a re-analysis of the deposited data

How the results depend on the processing

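Across 130 alternative values for the 10 members, 118 kept their direction and their side of the adjusted p-value, 8 lost the call, 4 gained it and 0 changed direction. *Kdr* and *Flt4* passed in all alternatives, and 3 members passed both thresholds in each setting but the next, where 2 did. When a fold change of 2 was tested within the model, the calls of *Vegfa* (-0.47), *Vegfb* (0.75), *Pgf* (1.24, adjusted p = 0.184), *Flt1* (0.73) and *Nrp1* (0.58) were lost, since that test asks for more than a change. In that setting 138 of all genes were higher and 274 lower, 1 relay gene was higher and 0 lower, and 0 semaphorin or plexin genes were higher. With upper-quartile normalization and with library size only, *Nrp2* passed (-0.23 and -0.24), which made 2 members lower in each; the median over all genes was -0.097 and -0.10 there, against -0.018.

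With each sample left out in turn, the log2 fold change ran from 0.52 to 0.92 for *Vegfb*, -0.74 to -0.26 for *Vegfd* and -0.19 to -0.12 for *Nrp2*, and 5 to 6 members were higher and 1 to 3 lower at the adjusted p-value, 3 of them lower without TranspCtrl replicate 1. Past both thresholds, 1 to 3 relay genes and 1 to 2 ligand expression genes were higher (2 without TranspCtrl replicate 2 or 3), 1 to 2 response genes were lower (2 without TranspCtrl replicate 1), and 2 to 4 semaphorin or plexin genes were lower (4 without TranspExer replicate 3). The cause of these moves was not tested. All 93 alternative values of the ratios moved by less than the larger SD of the groups, a spread that TranspCtrl replicate 1 widens. Without that sample the group difference of *Flt4* to *Kdr* went from 0.29 to 0.08, that of *Flt4* to the endothelial markers from 0.29 to 0.09, and that of *Vegfa* to *Vegfb* from -1.27 to -0.96.

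Same-numbered deviations from the group means correlated at 0.0247, -0.00167 and 0.0416, and TranspCtrl replicate 1 correlated best with TranspExer replicate 2 (0.0546). Values this small show no pairing by replicate number, and they cannot tell whether same-numbered samples were processed together. With the replicate block, *Kdr* had a log2 fold change of 1.54, 6 members were higher and 1 lower at the adjusted p-value, and 519 genes were higher and 767 lower past both thresholds. *Vegfd* had the fewest counts of the 10 members, 23 to 54 per sample.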

Other observations

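Markers of other cells that a flushed marrow culture can hold did not move together. Of 9 pericyte and smooth muscle markers, 5 were higher past both thresholds and none lower, and 6 were higher and 2 lower at the adjusted p-value alone (of all genes tested, 3.50% and 5.28%, and 16.6% and 15.5%). The 4 most abundant were *Acta2*, *Tagln*, *Mcam* and *Abcc9*, with log2 fold changes of -0.47, -0.98, 1.01 and 1.21, so that the summed level was lower in TranspExer (1814 to 2024 CPM) than in TranspCtrl (2489 to 2934 CPM). Among the megakaryocyte markers, *Ppbp* and *Itga2b* had log2 fold changes of 1.26 and 1.52, and *Pf4* had means of 152 ± 41.7 and 154 ± 12.6 CPM (SD, n = 3). Without TranspCtrl replicate 1, *Pf4* passed with a log2 fold change of 0.26 (adjusted p = 0.0089).

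Of 12 macrophage and monocyte markers, none was higher and 2 were lower past both thresholds, where 3.50% and 5.28% of all genes tested were, and at the adjusted p-value alone 2 were higher and 3 lower. Their median log2 fold change was -0.01, with sums of 9577 to 14698 CPM in TranspCtrl and 7778 to 8473 CPM in TranspExer. *Lyz2* fell by 1.14 on the log2 scale (log2 fold change -0.80 without TranspCtrl replicate 1) and *Cd68* rose by 0.78, while *Csf1r* had means of 882 ± 33.0 and 928 ± 41.9 CPM and *Itgam* 605 ± 25.8 and 637 ± 22 CPM (SD, n = 3). Of 8 B and plasma cell markers, 7 were lower past both thresholds, beside 5.28% of all genes tested, and none was higher. Among the 7 were *Jchain*, *Mzb1*, *Ms4a1* and *Cd79a*, with log2 fold changes of -2.29, -3.57, -1.25 and -1.42. The sums of the 8 markers were 1528 to 1928 CPM in TranspCtrl and 360.0 to 394 CPM in TranspExer. Of 8 neutrophil markers, 2 were higher and none lower past both thresholds, beside 3.50% and 5.28% of all genes tested. At the adjusted p-value alone 3 were higher and 1 lower, beside 16.6% and 15.5%, and 4 did not pass. The sums of the 8 markers were 3158 to 4229.8 CPM in TranspCtrl and 5458 to 5679 CPM in TranspExer. The leading ones were *Ngp* (log2 fold change 0.53), *S100a9* (-0.07, adjusted p = 0.841), *Mpo* (2.47) and *Ltf* (0.07, adjusted p = 0.506). Without TranspCtrl replicate 1, *S100a9* turned to 0.27 and passed (adjusted p = 0.0198). The part of these cells in the values of *Flt1*, *Pgf* and *Nrp1* was not tested. The summed level of 6 lymphatic endothelial markers was 35.4 to 45.2 CPM in TranspCtrl and 51.1 to 53.1 CPM in TranspExer. Among them *Mmrn1* rose most in CPM, from a mean of 13.7 in TranspCtrl to 30.7 in TranspExer. *Pdpn* went from 23.1 to 19.1 CPM, *Reln* from 3.96 to 0.849 CPM and *Lyve1* from 0.296 to 0.934 CPM.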
